A study of Mus musculus with 8 samples.

Results

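Glycolysis and hypoxia genes are described here across cell fractions of mouse liver: 36 genes that encode glucose and lactate transporters, the enzymes from hexokinase to lactate dehydrogenase and their regulators, and the hypoxia-inducible factors (HIF) with their hydroxylases and induced genes. The genes were listed by name, and a probe set was assigned to a gene when its symbol was among those annotated to the probe set. All 36 were found, on 83 of 45101 probe sets, among 22479 genes named on the array. Where a gene had several probe sets, the brightest over all arrays was used. The exception is Hk1, whose brightest probe set also names the ribosomal gene Rpl17 and others, so that the brightest probe set naming Hk1 alone was taken. The values used for Aldoa, Eno1 and Bnip3l come from probe sets that also name other genes, some of them near-identical copies, and which copy was measured is uncertain.

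RNA was hybridised to 8 Affymetrix mouse expression arrays, 1 per group. A set of 3 fractions came from biliary fibrosis: portal fibroblasts (fibrotic PF), vitamin A-positive hepatic stellate cells (fibrotic HSC) and GPM6A-positive mesothelial cells (fibrotic MC). The others were PF after a sham operation, HSC, MC, vitamin A-negative GFP-positive cells (VitA-GFP+ cells) and whole liver, for which the labels name no injury. All cells came from adult Col1a1-GFP transgenic mice, in which a collagen promoter drives GFP, and whole liver from an adult wild-type mouse, all on C57Bl6. The labels name no procedure for the fibrosis, no number of animals and no gate for PF. There are no replicates, so no test was possible, every difference is between single arrays, and the number of arrays limits the precision.

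In glycolysis, glucose enters the cell through facilitative transporters, is phosphorylated by hexokinase and is split into sugars that are converted to pyruvate. Pyruvate is either oxidised in mitochondria or reduced to lactate, which leaves through proton-coupled transporters. In low oxygen, prolyl hydroxylases no longer mark the HIF alpha subunits for destruction, and HIF raises transcription of many glycolytic genes, of Vegfa and of its own hydroxylase Egln3. Liver parenchyma is known for hepatocyte isozymes such as glucokinase and liver pyruvate kinase. The genes listed here include other isozymes of these steps, such as Hk1, Hk2 and Pkm, and also the liver phosphofructokinase Pfkl.

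The fractions carried markers of their labels, and some carried those of other cells. The retinol esterifying enzyme Lrat had log2 intensities of 12.68 in fibrotic HSC and 13.26 in HSC, and the mesothelial marker Msln had 11.10 in fibrotic MC and 12.84 in MC. Thy1, a portal fibroblast surface protein, had 10.87 in fibrotic PF and 11.27 in sham PF. It did not set PF apart, with 10.54 in fibrotic MC, 9.20 in VitA-GFP+ cells and 8.26 in MC. All 8 mesothelial markers listed were at or above the array median in fibrotic PF and in VitA-GFP+ cells, and 7 of 8 in sham PF. Arrays also differed in the ratio of 3' to 5' signal, read as a measure of RNA quality, and in sex-linked transcripts. The ratio of 3' to 5' signal for Gapdh ran from 5.68 to 13.8 on the 4 arrays whose sample codes start with AI (sham PF and the fibrotic fractions), and from 1.42 to 2.01 on the other 4. Xist, made from an inactive X chromosome, was at 5.31 in fibrotic PF and 11.96 in sham PF, and the Y-linked Ddx3y at 11.83 in fibrotic PF and 2.78 in sham PF. The MC array held both transcripts, Xist at 11.41 and Ddx3y at 9.67. The labels do not say what the codes stand for, and in the HSC and MC pairs code and fibrosis cannot be told apart.

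Calls needed a difference of at least 2-fold between arrays (1 on the log2 scale) and a level no lower than the array's median over probe sets on the brighter of them. Of the 36 genes, 27 were at or above the median on all 8 arrays, against 9330 of 22479 genes named. The enzymes Pfkm, Gpi1, Pgam1, Eno1, Pgk1, Pfkl and Ldha each spanned under 2 on the log2 scale between the lowest and the highest array, as did Bnip3l, Egln1, Hif1a, P4ha1 and Ankrd37. By contrast Eno2 spanned 7.34, Egln3 6.76, Car9 6.75 and Slc16a1 6.70. In all, 24 of the 36 genes (66.7%) spanned 2 or more, close to the 65.1% of the 17193 genes that reached the median on at least 1 array.

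**Figure D1:**
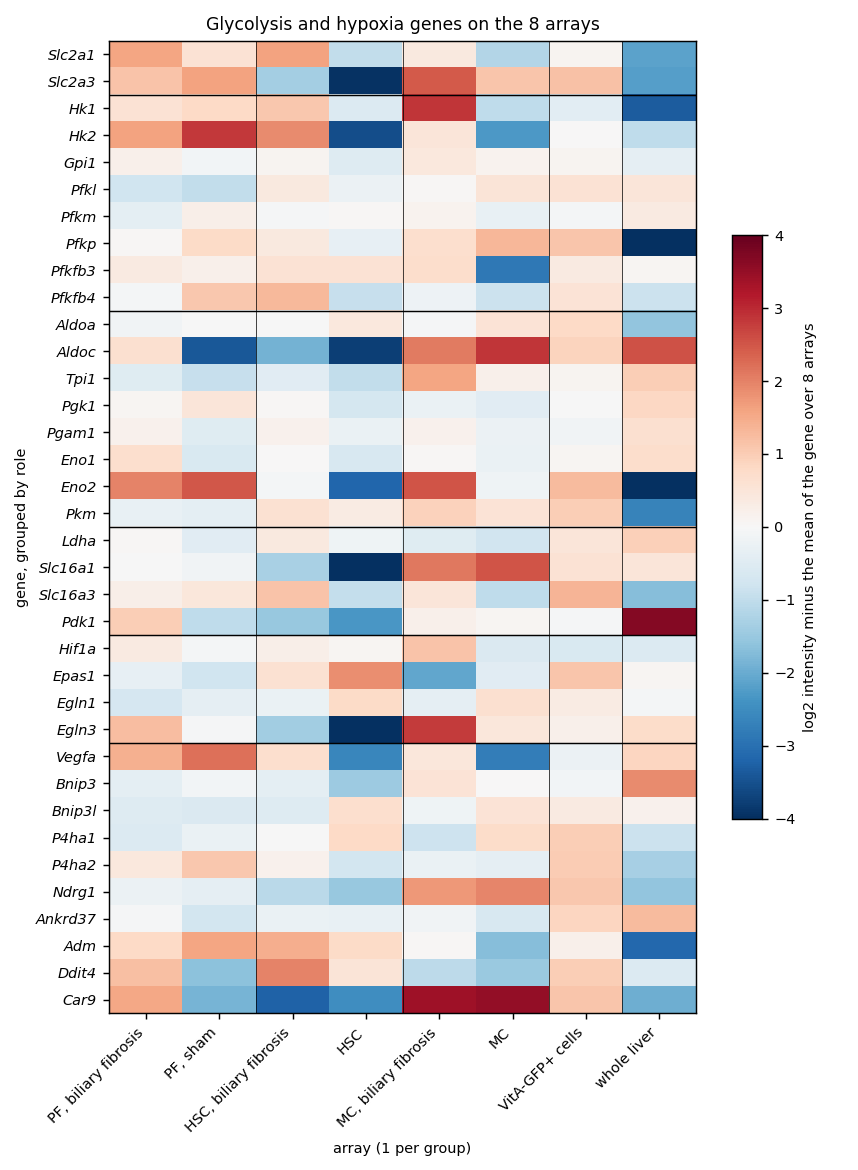
Log2 intensity of the 36 genes (rows, grouped by role) on the 8 arrays (columns), after subtraction of the mean of the gene over the arrays, with the colour scale ending at 4 in either direction. Slc2a3, Hk2, Aldoc, Eno2, Slc16a1 and Egln3 are dark blue in HSC, while Pfkp, Pkm, Eno2 and Hk1 are blue in whole liver.

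The promoters shown are of some genes called higher in the fibrosis pairs, and each holds ACGTG, a form of the core of the hypoxia response element. Called genes without it are named after the sequences. That element is the DNA sequence that HIF binds, and its other core form, GCGTG, was not searched. The letters ACGTG were searched on both strands (CACGT on the other) in windows from 250 bases before to 50 bases after each annotated start, from RefSeq on GRCm38.p6. Overlapping matches were allowed, and the E-box CACGTG contains both forms. The sequences below are the 250 bases before the start, 5′ to 3′ on the strand of the gene, in lower case with the motif in capitals. Ddit4, Egln3 and Car9 were higher in fibrotic PF than in sham PF, and Hk2, Slc2a1 and Slc16a3 were higher in fibrotic HSC and MC than in HSC and MC.
Car9, chr4:43506776-43507025, plus strand: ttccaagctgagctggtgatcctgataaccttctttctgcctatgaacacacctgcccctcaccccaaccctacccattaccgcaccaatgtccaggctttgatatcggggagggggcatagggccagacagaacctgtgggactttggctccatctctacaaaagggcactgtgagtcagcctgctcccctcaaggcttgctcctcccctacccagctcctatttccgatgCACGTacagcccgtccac
Ddit4, chr10:59951771-59952020, minus strand: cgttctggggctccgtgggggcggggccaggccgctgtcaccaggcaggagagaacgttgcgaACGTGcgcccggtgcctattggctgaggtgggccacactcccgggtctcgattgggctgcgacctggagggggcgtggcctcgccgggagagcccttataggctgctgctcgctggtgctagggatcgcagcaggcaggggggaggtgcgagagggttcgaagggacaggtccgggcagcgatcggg
Egln3, chr12:54203875-54204124, minus strand: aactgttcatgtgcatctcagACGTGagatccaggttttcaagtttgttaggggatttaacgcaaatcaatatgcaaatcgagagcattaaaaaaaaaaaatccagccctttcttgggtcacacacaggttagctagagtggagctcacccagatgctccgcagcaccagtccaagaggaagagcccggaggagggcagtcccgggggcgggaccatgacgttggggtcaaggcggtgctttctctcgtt
Hk2, chr6:82774455-82774704, minus strand: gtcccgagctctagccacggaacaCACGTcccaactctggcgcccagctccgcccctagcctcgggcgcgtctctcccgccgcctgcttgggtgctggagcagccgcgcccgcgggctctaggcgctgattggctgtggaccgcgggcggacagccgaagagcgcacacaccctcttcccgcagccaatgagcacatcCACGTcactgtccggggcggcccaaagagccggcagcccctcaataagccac
Slc2a1, chr4:119108495-119108744, plus strand: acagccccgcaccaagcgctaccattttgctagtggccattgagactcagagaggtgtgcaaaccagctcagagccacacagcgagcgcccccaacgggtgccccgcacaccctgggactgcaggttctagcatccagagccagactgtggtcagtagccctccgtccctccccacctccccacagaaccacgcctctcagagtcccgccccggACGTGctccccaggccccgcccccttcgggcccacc
Slc16a3, chr11:120948817-120949066, plus strand: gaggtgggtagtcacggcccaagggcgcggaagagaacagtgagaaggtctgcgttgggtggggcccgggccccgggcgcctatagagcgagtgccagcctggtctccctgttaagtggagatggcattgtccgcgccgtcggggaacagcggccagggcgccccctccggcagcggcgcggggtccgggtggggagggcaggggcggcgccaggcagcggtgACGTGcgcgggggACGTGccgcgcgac

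In Car9 the motif starts 18 bases before the start site, in Slc2a1 36 bases before and in Slc16a3 27 and 14 bases before. It lies farther out in Ddit4, at 187 bases, and in Egln3, at 229 bases, and Hk2 holds it at 226 and 52 bases. Of the 32 genes of the set with a window, 23 (71.9%) held the motif in at least 1 window, against 5886 of 27025 genes (21.8%). By window the share was 26 of 46 (56.5%), against 6447 of 32851 (19.6%). Many of these genes were listed as known hypoxia-induced genes, so the share describes the list. Slc2a3, Epas1, Bnip3l and Ndrg1 were not matched to a window. Of the 7 genes with a window that were higher in both the HSC and the MC pair, 6 held ACGTG and Eno2 did not. Vegfa, among the 6, held it at 1 annotated start and not at another. Among genes higher in fibrotic PF, ACGTG was in the windows of Car9, Ddit4, Egln3 and Aldoc, and in no window of Pdk1 or Eno1. The form GCGTG, outside the search, does occur before an annotated start of Pdk1 and of Eno1. It was not counted over the other genes, so neither its presence there nor the lack of ACGTG is read further. A match is a run of letters and not evidence of binding.

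In portal fibroblasts, the only fraction with a sham array, fibrosis went with a few large differences and with most of the set within 2-fold. Fibrotic PF had 6 genes higher (8.93% of all genes were called higher) and 2 lower (6.82% of all genes), so 8 were called (15.8% of all genes) and 28 of 36 lay within 2-fold. The higher genes were Aldoc, Car9, Ddit4, Pdk1, Egln3 and Eno1, and the lower ones Hk2 and Pfkfb4. The median difference was 0.11, against -0.01 over all genes. In bulk RNA, more cells of a type and more RNA per cell cannot be told apart.

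Aldoc, the aldolase isozyme best known from brain, differed by 4.04, with log2 intensities of 6.81 in fibrotic PF against 2.77 in sham PF, 4.28 in fibrotic HSC against 2.41 in HSC, 8.25 in fibrotic MC against 9.02 in MC, and 7.06 in VitA-GFP+ cells against 8.73 in whole liver. It was below the array median in sham PF and both HSC arrays and highest in MC. The other probe set differed by 1.56 but stayed below the median in the PF pair. Car9, a membrane carbonic anhydrase that is a standard marker of hypoxia, differed by 3.41, with 8.02 in fibrotic PF against 4.61 in sham PF, 3.25 in fibrotic HSC against 3.98 in HSC, 9.86 in fibrotic MC against 9.99 in MC, and 7.59 in VitA-GFP+ cells against 4.51 in whole liver. The MC and fibrotic MC arrays were alike and highest, and both HSC arrays lay below the median. Ddit4, a stress-induced inhibitor of the growth kinase mTOR complex, differed by 2.83, with 11.66 in fibrotic PF against 8.83 in sham PF, 12.45 in fibrotic HSC against 10.96 in HSC, 9.43 in fibrotic MC against 8.98 in MC, and 11.45 in VitA-GFP+ cells against 9.92 in whole liver. Sham PF was the lowest of the 8 arrays for this gene. Pdk1, a kinase that inhibits pyruvate dehydrogenase and so limits the oxidation of pyruvate in mitochondria, differed by 1.99, with 9.56 in fibrotic PF against 7.58 in sham PF, 7.07 in fibrotic HSC against 6.28 in HSC, 8.78 in fibrotic MC against 8.68 in MC, and 8.54 in VitA-GFP+ cells against 12.27 in whole liver. Whole liver was far above every fraction. Its probe sets at or above the median differed by -0.21 to 2.22 in the PF pair, so the size rests on the probe set.

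Egln3, the HIF hydroxylase that HIF itself induces, was the single gene called higher in all 3 fibrosis pairs, by 1.29 in PF, 2.59 in HSC and 2.35 in MC. Its log2 intensities were 8.84 in fibrotic PF against 7.55 in sham PF, 6.21 in fibrotic HSC against 3.62 in HSC, 10.38 in fibrotic MC against 8.03 in MC, and 7.79 in VitA-GFP+ cells against 8.34 in whole liver. Both probe sets moved alike. HSC lay below its array median of 5.47, so the size of the HSC difference is uncertain. Over all genes, 1.71% were called higher in the 3 pairs. Eno1, the widely expressed enolase, differed by 1.29, with 12.15 in fibrotic PF against 10.86 in sham PF, 11.51 in fibrotic HSC against 10.84 in HSC, 11.53 in fibrotic MC against 11.23 in MC, and 11.55 in VitA-GFP+ cells against 12.19 in whole liver. Only the PF pair was called for this gene, and it was not called with the mean of its probe sets (0.90). The lower genes were Hk2, at 10.21 in fibrotic PF and 11.43 in sham PF, and Pfkfb4, at 5.88 in fibrotic PF and 7.05 in sham PF.

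Markers of the fraction and of other cells moved with this pair. Portal fibroblast markers had 8 of 8 at or above the array median and a summed intensity of 11302 in fibrotic PF, against 8 of 8 and 25973 in sham PF. Among them Dpt was at 11.70 in fibrotic PF and 13.58 in sham PF, and Fbln1 at 8.50 in fibrotic PF and 10.84 in sham PF. Stellate cell markers had 5 of 8 and 1878 in fibrotic PF, against 8 of 8 and 4369.5 in sham PF. The 8 cholangiocyte markers had 8 of 8 at or above the array median and a summed intensity of 7276 in fibrotic PF, against 3 of 8 and 1156 in sham PF. Hepatocyte markers had 7 of 8 at or above the array median and a summed intensity of 9997 in fibrotic PF, against 3 of 8 and 551 in sham PF. Mesothelial markers had 8 of 8 at or above the array median and a summed intensity of 25666 in fibrotic PF, against 7 of 8 and 3696 in sham PF, and macrophage markers 5 of 8 at or above the array median and a summed intensity of 8199.6 in fibrotic PF, against 3 of 8 and 584 in sham PF. Cell division markers had 8 of 8 at or above the array median and a summed intensity of 3939.8 in fibrotic PF, against 2 of 8 and 2317 in sham PF. The Gapdh 3' to 5' ratio was 10.2 in fibrotic PF and 13.2 in sham PF. No marker is at 0 on these arrays. Red blood cell markers were at 0 of 6 at or above the median in fibrotic PF and 2 of 6 in sham PF. The part of these cells in the differences above was not tested, nor that of RNA quality or sex.

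Counts of related pathways are read against the shares of all genes called in this pair, 8.93% higher and 6.82% lower. Of 14 other glycolytic genes 3 were called higher and 0 lower in fibrotic PF, among them Pklr (4.24) and Hkdc1 (3.15). Of 9 genes of gluconeogenesis and hepatic glucose output, 5 were higher and 0 lower, among them the fructose bisphosphatase Fbp1 (4.65) and the liver glucose transporter Slc2a2 (3.89). Of 13 glycogen genes 0 were higher and 2 lower, the phosphatase subunit Ppp1r3b (-3.51) and the muscle phosphorylase Pygm (-1.35). Of 24 other hypoxia-induced genes 3 were higher and 2 lower, with Stc2 at -3.24 and the transferrin receptor Tfrc at 1.67, and the median was 0.02. Arnt2, a partner of HIF alpha subunits, differed by 2.18 and was the single call among 9 genes of the HIF machinery. Pyruvate entry genes had 0 of 10 higher and 2 lower, Pdp2 (-1.30) and Pdk4 (-1.06), and the pentose phosphate pathway 1 of 7 higher, Taldo1 (1.06).

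**Figure D2:**
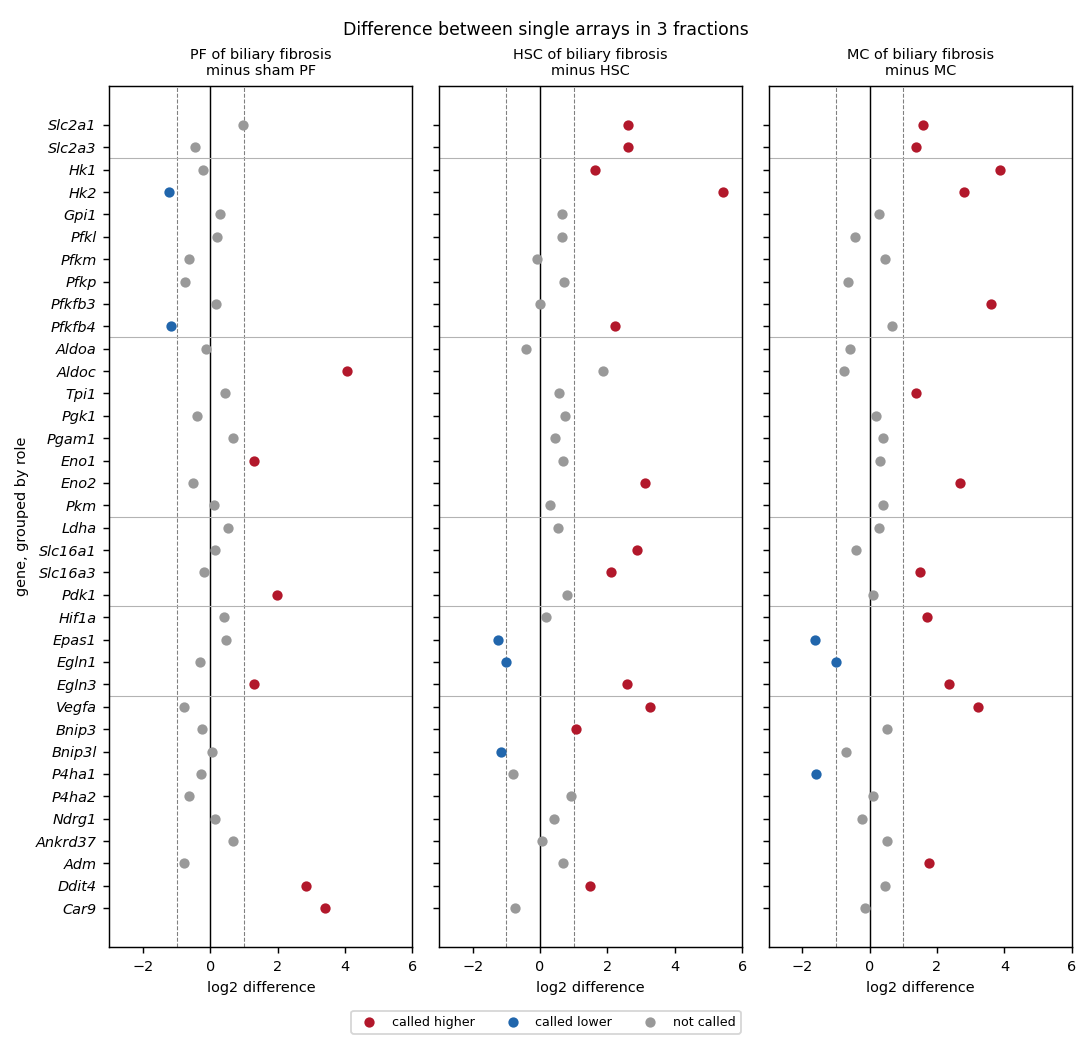
Log2 difference between single arrays for the 36 genes (rows, grouped by role) in PF, HSC and MC, biliary fibrosis minus sham PF or minus the array with no injury named. Red points are genes called higher, blue points genes called lower and grey points genes not called, and dashed lines mark a 2-fold difference. Hk2 lies left of zero in PF and far to the right in HSC.

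Fibrotic HSC, set against HSC with no injury named, differed most in Hk2 and Vegfa. Higher were both glucose transporters, 3 of 8 genes of the hexose phosphate steps and 3 of 10 other hypoxia-induced genes, while 1 of those 10, Bnip3l, was lower. In all 12 genes were higher (14.5% of all genes) and 3 lower (10.4%), or 15 in either direction (24.9%), with a median difference of 0.68 against 0.10 over all genes. Fibrotic MC against MC also had 12 genes higher (16.6% of all genes) and 3 lower (14.8%), or 15 in either direction (31.4%), with a median of 0.39 against 0.21. Both pairs cross the sample codes. Called higher in both were Hk1, Hk2, Eno2, Slc2a1, Slc2a3, Slc16a3, Vegfa and Egln3, which is 8 of 36 genes (22.2%), against 6.8% of all genes. Epas1 and Egln1 were called lower in both, but neither was called in either pair with the mean of their probe sets.

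Glucose uptake genes were higher in both pairs. Slc2a1, the basal glucose transporter, had log2 intensities of 12.71 in fibrotic PF against 11.73 in sham PF, 12.76 in fibrotic HSC against 10.16 in HSC, 11.54 in fibrotic MC against 9.96 in MC, and 11.24 in VitA-GFP+ cells against 9.01 in whole liver. The 4 AI arrays, sham PF among them, all lay above the other 4 arrays for this gene, and its 3 probe sets ran in parallel. Slc2a3, a high-affinity glucose transporter, had 9.08 in fibrotic PF against 9.54 in sham PF, 6.58 in fibrotic HSC against 3.99 in HSC, 10.39 in fibrotic MC against 9.03 in MC, and 9.09 in VitA-GFP+ cells against 5.74 in whole liver. HSC lay below its array median. Slc2a1 differed by 2.60 in HSC, 1.59 in MC and, short of a call, 0.98 in PF, and Slc2a3 by 2.60 in HSC and 1.36 in MC. Of the other 3 probe sets of Slc2a3, 1 moved like it (2.96 in the HSC pair, 1.45 in the MC pair) and 2 were below the median on all arrays.

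In either pair a hexokinase differed most. Hk2, the hexokinase that insulin and HIF induce, had 10.21 in fibrotic PF against 11.43 in sham PF, 10.47 in fibrotic HSC against 5.05 in HSC, 9.08 in fibrotic MC against 6.28 in MC, and 8.62 in VitA-GFP+ cells against 7.57 in whole liver. The 4 AI arrays all lay above the other 4, with sham PF highest and HSC, below its median, lowest, and the difference was 5.42 for HSC and 2.80 for MC. Hk1, the housekeeping hexokinase, had 9.37 in fibrotic PF against 9.59 in sham PF, 9.89 in fibrotic HSC against 8.25 in HSC, 11.66 in fibrotic MC against 7.78 in MC, and 8.38 in VitA-GFP+ cells against 5.47 in whole liver. For Hk1 too the AI arrays stood above the others. It differed by 1.64 in the HSC pair, where its fainter probe set had -0.70 and the mean of both, 0.47, was not called, and by 3.88 in the MC pair, where the fainter had 1.01.

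Phosphofructokinases, which commit sugar to glycolysis, were called in none of the fibrosis pairs with the probe sets used. The liver form Pfkl had 6.82 in fibrotic PF against 6.63 in sham PF, 8.02 in fibrotic HSC against 7.38 in HSC, 7.67 in fibrotic MC against 8.12 in MC, and 8.20 in VitA-GFP+ cells against 8.11 in whole liver. Its fainter probe sets differed by 1.62 and -0.56 in the HSC pair. The muscle form Pfkm lay between 7.45 and 8.18 on all 8 arrays, with 7.45 in fibrotic PF against 8.08 in sham PF, 7.79 in fibrotic HSC against 7.88 in HSC, 7.98 in fibrotic MC against 7.54 in MC, and 7.77 in VitA-GFP+ cells against 8.18 in whole liver. The platelet form Pfkp had 10.03 in fibrotic PF against 10.78 in sham PF, 10.39 in fibrotic HSC against 9.67 in HSC, 10.67 in fibrotic MC against 11.33 in MC, and 11.10 in VitA-GFP+ cells against 6.0 in whole liver, and whole liver stood apart. Of the bifunctional enzymes that make and remove an activator of phosphofructokinase, Pfkfb3 had 9.40 in fibrotic PF against 9.25 in sham PF, 9.61 in fibrotic HSC against 9.63 in HSC, 9.76 in fibrotic MC against 6.17 in MC, and 9.41 in VitA-GFP+ cells against 9.13 in whole liver. MC alone was low, so the MC pair differed by 3.59, and the HSC pair by -0.02. The fainter probe set of Pfkfb3 differed by 2.09 in the MC pair and by 1.58 in the HSC pair, so the HSC result rests on the probe set. Pfkfb4 had 5.88 in fibrotic PF against 7.05 in sham PF, 7.26 in fibrotic HSC against 5.04 in HSC, 5.78 in fibrotic MC against 5.12 in MC, and 6.51 in VitA-GFP+ cells against 5.10 in whole liver, with differences of 2.22 in HSC, 0.65 in MC and -1.16 in PF.

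Among the later glycolytic enzymes most differed little. Eno2, the neuronal enolase, had 11.29 in fibrotic PF against 11.81 in sham PF, 9.25 in fibrotic HSC against 6.14 in HSC, 11.84 in fibrotic MC against 9.15 in MC, and 10.58 in VitA-GFP+ cells against 4.50 in whole liver, and was higher by 3.10 for HSC and 2.69 for MC. Sham PF and fibrotic MC were at nearly the same level. Tpi1, which interconverts the triose phosphates, had 9.87 in fibrotic PF against 9.44 in sham PF, 9.91 in fibrotic HSC against 9.36 in HSC, 11.93 in fibrotic MC against 10.55 in MC, and 10.46 in VitA-GFP+ cells against 11.35 in whole liver, and the MC pair differed by 1.37. Aldoa, the main aldolase of most tissues, had 11.79 in fibrotic PF against 11.91 in sham PF, 11.91 in fibrotic HSC against 12.34 in HSC, 11.88 in fibrotic MC against 12.47 in MC, and 12.72 in VitA-GFP+ cells against 10.36 in whole liver. It was called in no fibrosis pair, and whole liver was lowest. Aldoc differed by 1.87 in the HSC pair, where both arrays lay below their median. Of the others, Pgk1 ran from 10.97 to 12.50, Pgam1 from 10.53 to 11.67, Gpi1 from 11.29 to 12.24 and Ldha from 10.07 to 11.76. Pkm, which encodes the pyruvate kinase of non-hepatic cells, ran from 7.76 to 11.39. None of these 5 was called in a fibrosis pair, but the fainter probe sets of Pgk1 differed by 1.84 and 1.99 for HSC and by 3.26 and 2.80 for MC.

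Of the lactate transporters, Slc16a1 parted by fraction and Slc16a3 did so less. Slc16a1, which carries lactate in either direction, had 10.49 in fibrotic PF against 10.36 in sham PF, 9.22 in fibrotic HSC against 6.33 in HSC, 12.62 in fibrotic MC against 13.04 in MC, and 11.09 in VitA-GFP+ cells against 11.00 in whole liver. Both MC arrays were highest and HSC lowest, and the HSC pair differed by 2.89. Slc16a3, the lactate exporter of glycolytic cells, had 6.07 in fibrotic PF against 6.27 in sham PF, 6.98 in fibrotic HSC against 4.87 in HSC, 6.31 in fibrotic MC against 4.81 in MC, and 7.17 in VitA-GFP+ cells against 4.14 in whole liver. It was higher by 2.11 for HSC and by 1.5 for MC, both from arrays below their median.

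HIF subunits and hydroxylases did not move together. Hif1a, the broadly expressed alpha subunit, had 12.24 in fibrotic PF against 11.83 in sham PF, 12.13 in fibrotic HSC against 11.97 in HSC, 13.03 in fibrotic MC against 11.33 in MC, and 11.30 in VitA-GFP+ cells against 11.35 in whole liver, and was higher by 1.70 in the MC pair. Epas1, the HIF alpha subunit prominent in endothelium and interstitial cells, had 11.62 in fibrotic PF against 11.15 in sham PF, 12.57 in fibrotic HSC against 13.81 in HSC, 9.87 in fibrotic MC against 11.49 in MC, and 13.08 in VitA-GFP+ cells against 12.04 in whole liver, with differences of -1.24 in HSC and -1.62 in MC. HSC was the highest array. Egln1, the main oxygen-sensing hydroxylase, had 9.94 in fibrotic PF against 10.24 in sham PF, 10.33 in fibrotic HSC against 11.35 in HSC, 10.23 in fibrotic MC against 11.23 in MC, and 10.91 in VitA-GFP+ cells against 10.53 in whole liver. It differed by -1.03 in the HSC pair and just past the threshold in the MC pair, with -1.0, and the 4 AI arrays all lay below the other 4. Its other probe set had -0.56 in HSC and -0.48 in MC, and quantile normalization ended both calls, with -0.99 for HSC and -0.94 for MC.

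Probe sets of Hif1a and Epas1 gave opposite directions in the pairs that cross the codes. In the MC pair the 3 Hif1a probe sets at or above the median differed by 1.70, 1.73 and -2.78, and in the HSC pair by 0.16, 0.76 and -2.90. The Hif1a probe set with the negative values differed by -2.42 between sham PF and VitA-GFP+ cells, and by -0.18 in the PF pair, which does not cross the codes. For Epas1 the brighter probe set had -1.24 for HSC and -1.62 for MC, while the fainter had 1.04 for HSC and 1.68 for MC. Pdk1 and, in the MC pair, Aldoa also had probe sets 2-fold apart in opposite directions, and no gene did so in the PF pair. The part of RNA quality in these differences was not tested.

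**Figure D3:**
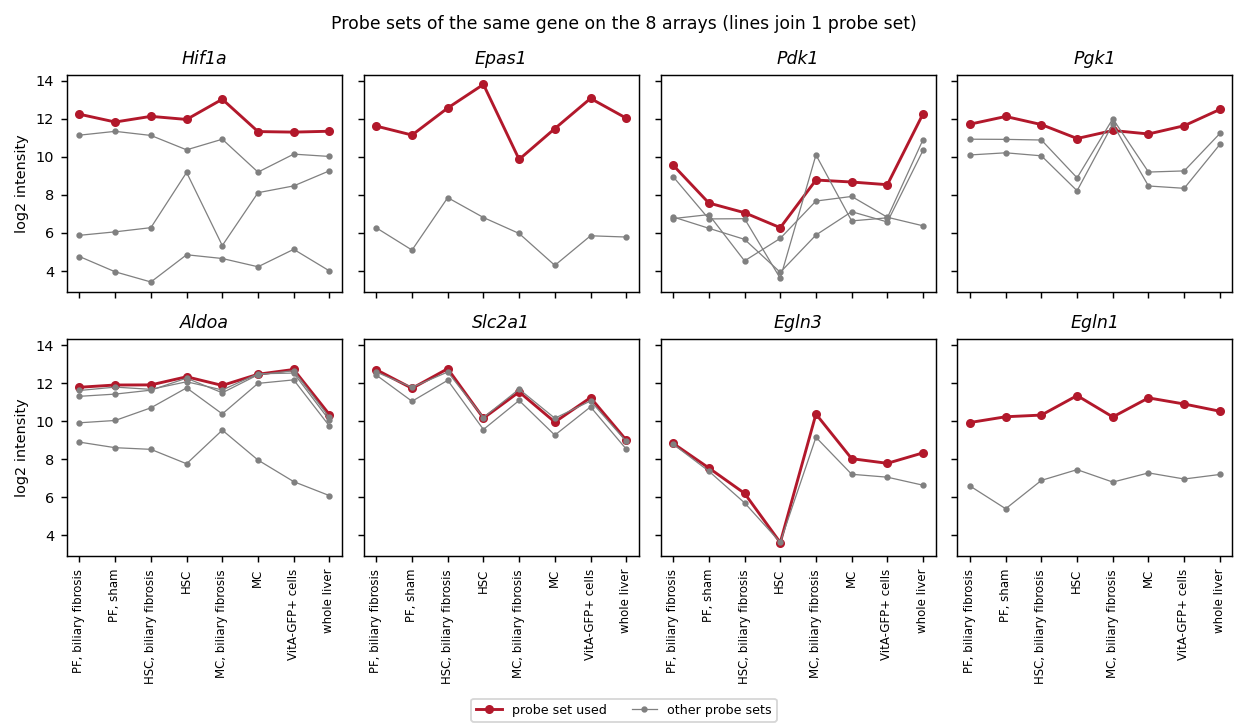
Log2 intensity on the 8 arrays (horizontal axis) for each probe set of 8 genes, with the probe set used in red, the others in grey, and a line for each probe set that joins arrays only to guide the eye. The probe sets of Slc2a1 and Egln3 run in parallel, while a grey line of Hif1a dips on the 4 AI arrays where the red line does not.

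Among the other hypoxia-induced genes, Vegfa differed most in the HSC and MC pairs. Vegfa, the endothelial growth factor, had 9.70 in fibrotic PF against 10.48 in sham PF, 8.92 in fibrotic HSC against 5.65 in HSC, 8.72 in fibrotic MC against 5.5 in MC, and 8.03 in VitA-GFP+ cells against 9.11 in whole liver, with differences of 3.27 in HSC and 3.22 in MC. Sham PF was again the highest array, above fibrotic PF. Its other probe set was below the median on all arrays of these 2 pairs. Adm, which encodes the vasodilator adrenomedullin, had 12.62 in fibrotic PF against 13.42 in sham PF, 13.27 in fibrotic HSC against 12.59 in HSC, 11.89 in fibrotic MC against 10.13 in MC, and 12.02 in VitA-GFP+ cells against 8.70 in whole liver, and was called in the MC pair (1.75). Bnip3, a mitophagy receptor, had 10.26 in fibrotic PF against 10.52 in sham PF, 10.24 in fibrotic HSC against 9.17 in HSC, 11.17 in fibrotic MC against 10.66 in MC, and 10.52 in VitA-GFP+ cells against 12.51 in whole liver, and differed by 1.07 in the HSC pair. Its relative Bnip3l had 10.24 in fibrotic PF against 10.18 in sham PF, 10.23 in fibrotic HSC against 11.40 in HSC, 10.59 in fibrotic MC against 11.29 in MC, and 11.09 in VitA-GFP+ cells against 10.92 in whole liver, and differed by -1.17 there, with the 4 AI arrays below the other 4. Ddit4 differed by 1.49 for HSC and 0.45 for MC.

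The collagen prolyl hydroxylase subunits, which HIF induces and which collagen folding needs, were not called higher in any fibrosis pair. P4ha1 had 8.90 in fibrotic PF against 9.16 in sham PF, 9.43 in fibrotic HSC against 10.22 in HSC, 8.60 in fibrotic MC against 10.19 in MC, and 10.43 in VitA-GFP+ cells against 8.59 in whole liver. It was called lower in the MC pair (-1.59), in which its other probe set had -2.67. That fainter probe set had -2.89 in the HSC pair. Sham PF minus VitA-GFP+ cells crosses the codes without fibrosis and gave -1.27, called lower, and -2.43 from the fainter probe set. The PF pair, within the AI codes, had -0.27, and -0.84 from the fainter probe set, below the median there. The part of the codes in these P4ha1 differences was not tested. P4ha2 had 7.95 in fibrotic PF against 8.59 in sham PF, 7.70 in fibrotic HSC against 6.79 in HSC, 7.27 in fibrotic MC against 7.16 in MC, and 8.53 in VitA-GFP+ cells against 6.18 in whole liver, and no fibrosis pair was called. Ndrg1, a stress-response gene, ran from 9.51 to 13.04 with the MC arrays highest, and Ankrd37, a HIF target, from 5.53 to 7.52; neither was called in a fibrosis pair.

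Counts of related pathways stand beside shares of all genes called of 14.5% higher and 10.4% lower in the HSC pair, and 16.6% higher and 14.8% lower in the MC pair. Of 7 pentose phosphate genes 2 were higher and 0 lower in the HSC pair, Pgd (3.62) and G6pdx (2.45), and 1 higher in the MC pair, Pgd (4.27). Sham PF also had more Pgd than VitA-GFP+ cells, by 2.06. Of 24 other hypoxia-induced genes 11 were higher and 1 lower in the HSC pair, including lysyl oxidase, Lox (6.10), and heme oxygenase, Hmox1 (4.63), with a median of 1.09. In the MC pair 7 were higher and 3 lower, including Hmox1 (4.10) and Tfrc (2.23), with a median of 0.28. Glycogen genes had 4 of 13 higher and 0 lower in the HSC pair, led by Ugp2 (2.09), and 7 higher and 3 lower in the MC pair, led by Pygm (3.57) and glycogenin, Gyg (3.24). The HIF machinery had 3 of 9 higher in the HSC pair, among them Hif3a (1.39), and 4 higher and 1 lower in the MC pair, among them the ubiquitin ligase Siah2 (2.93) and Vhl (-1.18).

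In the HSC pair other glycolytic genes had 5 of 14 higher and 1 lower, among them Pklr (2.60) and Ldhb (1.97), and gluconeogenesis genes 5 of 9 higher and 0 lower, including Pck1 (3.85). In the MC pair gluconeogenesis genes had 0 of 9 called in either direction, and other glycolytic genes 6 of 14 higher and 2 lower, including Eno3 (2.48) and Pfkfb1 (-1.82). Pyruvate entry genes had 3 of 10 higher in the HSC pair, with Dlat at 1.69, and 4 higher and 1 lower in the MC pair, with Pdk3 at 3.16 and Pdk2 at -1.81. Beside these counts, hepatocyte markers had 7 of 8 at or above the array median and a summed intensity of 11705 in fibrotic HSC, against 7 of 8 and 4898 in HSC. Macrophage markers had 7 of 8 at or above the array median and a summed intensity of 9995 in fibrotic HSC, against 1 of 8 and 260.35 in HSC. By the same measures portal fibroblast markers had 7 of 8 and 4632 in fibrotic HSC, against 3 of 8 and 331 in HSC. Mesothelial markers had 3 of 8 and 4972 in fibrotic HSC, against 1 of 8 and 155 in HSC. The 3 were Krt18 (11.04 in fibrotic HSC), Krt8 (10.82) and Wt1 (9.91). The other mesothelial markers, Msln (4.35) among them, lay below the median in fibrotic HSC. Krt18 and Krt8 do not mark mesothelium alone, with 12.16 and 10.91 in whole liver. Cholangiocyte markers had 7 of 8 and 1103 in fibrotic HSC, against 1 of 8 and 161 in HSC. Lymphocyte and neutrophil markers had 5 of 8 and 1526 in fibrotic HSC, against 1 of 8 and 142 in HSC. Cell division markers had 8 of 8 and 2714 in fibrotic HSC, against 3 of 8 and 431 in HSC, and the fraction's own stellate cell markers 8 of 8 and 34866 in fibrotic HSC, against 8 of 8 and 54439 in HSC. In the MC pair macrophage markers had 6 of 8 and 7117 in fibrotic MC, against 2 of 8 and 1132 in MC. Hepatocyte markers had 6 of 8 and 851 in fibrotic MC, against 2 of 8 and 309 in MC. Lymphocyte and neutrophil markers had 6 of 8 and 2525 in fibrotic MC, against 3 of 8 and 529.9 in MC. Endothelial markers had 7 of 8 and 1904 in fibrotic MC, against 4 of 8 and 2408 in MC. Cholangiocyte markers had 7 of 8 and 6922 in fibrotic MC, against 4 of 8 and 17095 in MC, and the fraction's own mesothelial markers 8 of 8 and 40062 in fibrotic MC, against 8 of 8 and 52037 in MC. The part of these cells in the differences was not tested.

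Sham PF was also set against VitA-GFP+ cells, across the codes and with no fibrosis on either side, where cell fraction, sham operation, sex and code cannot be told apart. Xist was at 11.96 in sham PF against 4.47 in VitA-GFP+ cells. Endothelial markers had 5 of 8 at or above the array median and a summed intensity of 2329 in sham PF, against 8 of 8 and 14395 in VitA-GFP+ cells. Hepatocyte markers had 3 of 8 and 551 in sham PF, against 6 of 8 and 9273 in VitA-GFP+ cells. Macrophage markers had 3 of 8 and 584 in sham PF, against 8 of 8 and 6029.8 in VitA-GFP+ cells, and mesothelial markers 7 of 8 and 3696 in sham PF, against 8 of 8 and 24803 in VitA-GFP+ cells. The part of these cells was not tested. Sham PF had 5 genes higher (8.86% of all genes) and 10 lower (13.1%). Hk2 (2.81), Vegfa (2.45), Adm (1.40), Eno2 (1.23) and Hk1 (1.21, but -1.61 from its fainter probe set) were higher, and Aldoc (-4.30), Car9 (-2.99) and Ddit4 (-2.62) were the lowest. The fainter probe sets of Vegfa and Adm had -0.81 and 0.34, so these results rest on the probe set. Of the 36 genes 15 were 2-fold or more apart between these arrays. Over the remaining 21 genes, 7 were higher in fibrotic HSC than in HSC (33.3%, against 11.8% of the 16195 genes not 2-fold apart there) and 6 in fibrotic MC than in MC (28.6%, against 14.9%). Leaving genes out in this way cannot remove differences between codes, because these arrays differ in more than code. Slc2a1, Bnip3l and Egln1, for which the 4 AI arrays lay wholly apart from the other 4, stay among the 21. The 4 AI arrays lay wholly above the other 4 for 3 of 36 genes (8.33%, against 5.9% of all genes), and wholly below for 2 of 36 (5.56%, against 6.0%).

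Fibrotic fractions can be compared with each other on the same codes. Fibrotic HSC against fibrotic PF had 2 genes higher (7.89% of all genes), Pfkfb4 (1.38) and Pfkl (1.20), and 7 lower (9.38%). The largest were Car9 (-4.77), Egln3 (-2.63) and Aldoc (-2.53), with Slc2a3 (-2.5), Pdk1 (-2.5) and Eno2 (-2.05) beside them. Fibrotic MC against fibrotic PF had 9 higher (9.4%) and 4 lower (13.2%). Higher were Hk1 (2.30), Slc16a1 (2.13), Tpi1 (2.05) and Ndrg1 (1.98), while Ddit4 (-2.23), Epas1 (-1.75), Slc2a1 (-1.17) and Hk2 (-1.13) were lower. Both comparisons share the fibrotic PF array.

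HSC and MC with no injury named both carry T codes. HSC had 4 genes higher (10.7% of all genes) than MC: Pfkfb3 (3.45), Adm (2.46), Epas1 (2.32) and Ddit4 (1.98). It had 12 lower (9.59%), led by Slc16a1 (-6.70), Aldoc (-6.61), Car9 (-6.02), Slc2a3 (-5.04) and Egln3 (-4.41). Of these 5, Slc16a1 alone was at or above the array median in HSC. Outside the set, lactate dehydrogenase B, Ldhb, was at 6.15 in HSC and 11.27 in MC.

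Against the same whole-liver array, HSC had 10 genes higher (17.0% of all genes) and 13 lower (20.3%), or 23 called (37.3%). VitA-GFP+ cells had 17 higher (17.9%) and 4 lower (16.3%), or 21 called (34.2%). MC had 11 higher (17.0%) and 8 lower (21.9%), or 19 called (38.9%). These comparisons share whole liver, most of whose RNA is from hepatocytes. Whole liver was also wild-type, while the cells carried the Col1a1-GFP transgene. Sex-linked transcripts differed too. Whole liver had Xist at 11.40 and Ddx3y at 2.04. The HSC array had Xist at 4.37 and Ddx3y at 10.99, and the VitA-GFP+ array had 4.47 and 10.47. MC held both transcripts, at 11.41 and 9.67. The part of sex or genotype in the differences from whole liver was not tested. Higher in each fraction were Pfkp, Pkm, Eno2, Hk1, Aldoa, Adm and P4ha1, whereas Hk2 differed by -2.52 for HSC, 1.05 for VitA-GFP+ cells and -1.28 for MC, and Aldoc by -6.32 for HSC, -1.67 for VitA-GFP+ cells and 0.29 for MC. The difference of Pfkp was 3.67 for HSC, 5.10 for VitA-GFP+ cells and 5.33 for MC, and that of Pkm 2.99 for HSC, 3.64 for VitA-GFP+ cells and 3.20 for MC. For Eno2 it was 1.64 for HSC, 6.07 for VitA-GFP+ cells and 4.65 for MC. For Hk1 it was 2.78 for HSC, 2.92 for VitA-GFP+ cells and 2.32 for MC, and for Aldoa 1.98 for HSC, 2.37 for VitA-GFP+ cells and 2.12 for MC.

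Pdk1, Bnip3 and Vegfa were lower than in whole liver in each fraction. The difference of Pdk1 was -5.99 for HSC, -3.73 for VitA-GFP+ cells and -3.59 for MC, and that of Bnip3 -3.34 for HSC, -1.99 for VitA-GFP+ cells and -1.85 for MC. The probe sets of Pdk1 at or above the median ran from -4.28 to 1.54 for MC and from -4.12 to 0.45 for VitA-GFP+ cells. Other genes parted by fraction. Car9 differed by 5.49 for MC and 3.09 for VitA-GFP+ cells, while for HSC it differed by -0.53 with both arrays below their median. Slc16a1 differed by -4.67 for HSC and 2.03 for MC. Slc2a3 was lower in HSC (-1.75) and higher in VitA-GFP+ cells (3.35) and MC (3.29). Adm had the largest positive difference in HSC (3.90). The hepatic pyruvate kinase Pklr was lower in all, with -7.45 for HSC, -7.18 for VitA-GFP+ cells and -7.51 for MC, and so was Fbp1, with -8.83 for HSC, -8.30 for VitA-GFP+ cells and -10.23 for MC. Gluconeogenesis genes had 7 of 9 lower in each of the 3 fractions.

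**Figure D4:**
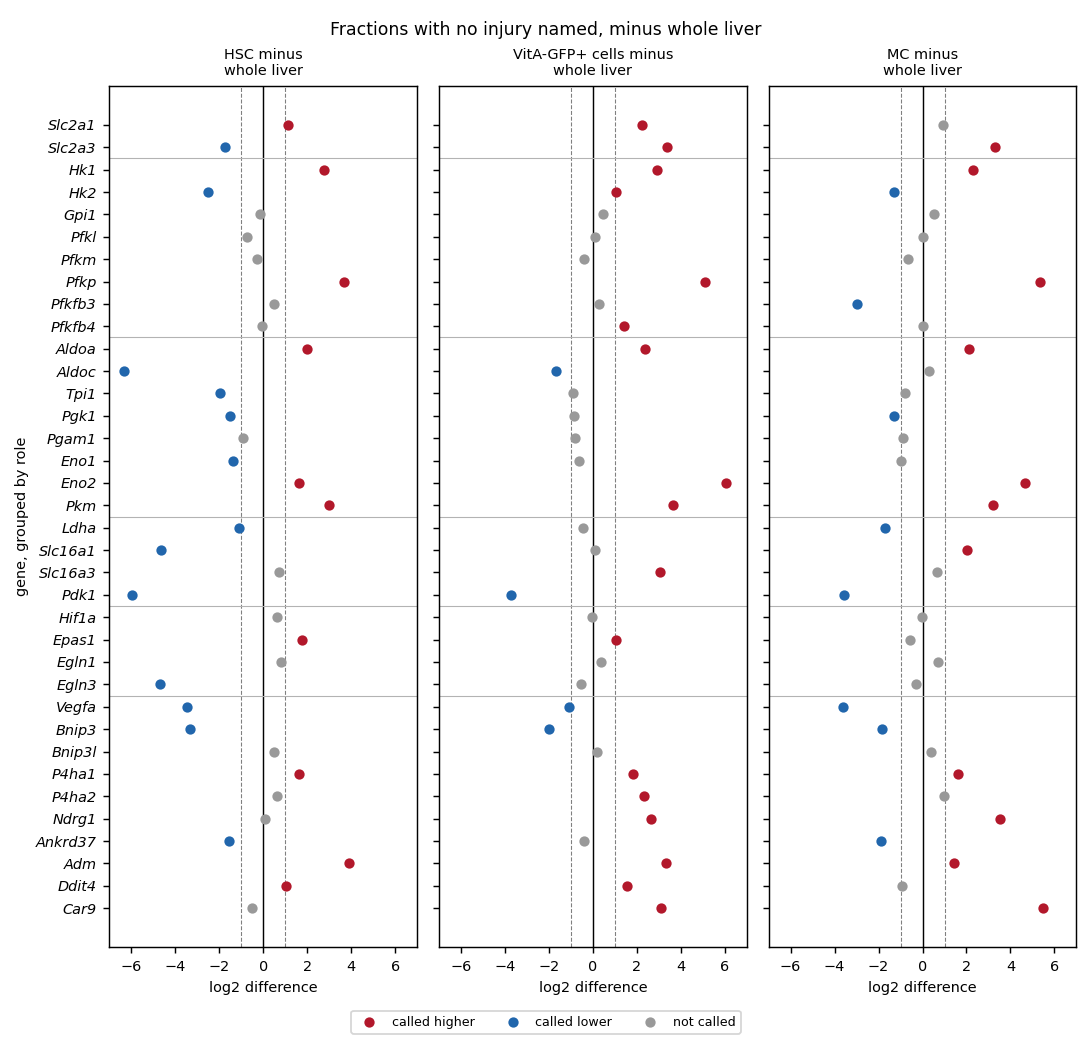
Log2 difference between single arrays for the 36 genes (rows, grouped by role) in HSC, MC and VitA-GFP+ cells, each minus the single whole-liver array. Red points are genes called higher, blue points genes called lower and grey points genes not called, and dashed lines mark a 2-fold difference. Pfkp, Pkm, Eno2, Hk1 and Aldoa lie to the right in all 3 panels, and Pdk1 and Bnip3 to the left.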

How the data were processed

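RNA was amplified before labelling, per the labels' protocols, and hybridised to Affymetrix mouse arrays. Intensity values come as deposited, and RMA and Partek are named in the submitters' processing notes; versions, and whether the 8 arrays were normalized together, are not given in the sources used here. The values are linear, and log2 was taken here. Both tables the authors deposited are equal (largest difference 0).

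Control probe sets (64) were left out. Each gene took its brightest probe set, with the exception of Hk1 given above. Differences are log2 values of 1 array minus another, with the call rule stated above and shares of all 22479 genes as background. Other pathway genes and markers were matched by symbol or gene identifier. In each comparison the genes of the set that were called, and up to 4 called genes per pathway list with the largest difference, may be named; some genes of these lists are not reported here. The genes, lists and rules were chosen with earlier results of these data known. The steps were tested on simulated data. Settings tried are given in the closing section. Python 3.11.15, numpy 2.4.6, pandas 2.3.3 and matplotlib 3.10.9 were used.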

Additional observations from a re-analysis of the deposited data

Results flagged for a closer look

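Of the 36 genes, Hk2 and Pfkfb4 were called higher in a fibrosis pair and lower in another (2 of 36, or 5.56%, against 4.01% of all genes). Hk2 differed by -1.22 in PF, 5.42 in HSC and 2.80 in MC. Pfkfb4 differed by -1.16 in PF, 2.22 in HSC and 0.65 in MC. Each value is from single arrays, so the difference between fractions was not tested. The PF pair lies within the AI codes, the HSC and MC pairs cross the codes, and for Hk2 the 4 AI arrays all lay above the other 4, sham PF highest.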

How the results depend on the processing

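With 1 array per group no sample could be left out, and no paired analysis was possible because no group has a second sample. Medians of the 36 genes moved by over 0.5 in 1 case, and counts by over 1.5 times where given here. With a 4-fold rule, genes higher were 3 in fibrotic PF over sham PF, 6 in fibrotic MC over MC, 4 in HSC over whole liver, 2 in sham PF over VitA-GFP+ cells, 0 in fibrotic HSC over fibrotic PF and 3 in fibrotic MC over fibrotic PF. Genes lower were 0 in each of the 3 fibrosis pairs, 7 for HSC, 1 for VitA-GFP+ cells and 3 for MC over whole liver, 3 in sham PF over VitA-GFP+ cells and 1 in fibrotic MC over fibrotic PF. With the 75th percentile as minimum level, 1 was lower in fibrotic PF over sham PF and 1 higher in fibrotic HSC over fibrotic PF. With probe sets without suffix, which leave 29 genes, fibrotic MC over MC had 7 higher and 5 lower, HSC over whole liver 8 lower, MC over whole liver 7 higher, sham PF over VitA-GFP+ cells 3 higher, and the median of VitA-GFP+ cells over whole liver was 1.04. With the mean of probe sets, sham PF over VitA-GFP+ cells had 3 higher. With arrays shifted to the same median, VitA-GFP+ cells over whole liver had 8 lower. Leaving out the 15 genes called in sham PF over VitA-GFP+ cells, which keeps 21, fibrotic HSC over HSC had 7 higher, and fibrotic MC over MC 6 higher and 1 lower. Quantile normalization and no minimum level moved no count or median past these bounds, though quantile normalization ended the calls of Egln1 in HSC (-0.99) and MC (-0.94) and called Slc2a1 in PF (1.03), and the same-median shift ended that of Egln1 in MC (-0.84). Counts hide which genes are called. In the 3 fibrosis pairs the mean of probe sets ended the calls of Eno1 in PF (0.90), of Hk1 (0.47), Slc2a3 (1.31, below the minimum level), Epas1 (-0.10) and Egln1 (-0.80) in HSC, and of Slc2a3 (0.72), Hif1a (0.27), Epas1 (0.0285, a change of sign) and Egln1 (-0.74) in MC. It called Slc2a1 (1.05) and Adm (-1.31) in PF, Pgk1 (1.52), Pdk1 (1.12) and P4ha1 (-1.84) in HSC, and Aldoc (-1.22), Pgk1 (2.08) and Bnip3l (-1.11) in MC. Probe sets without suffix ended the calls of Aldoc (1.56, below the minimum level) and Eno1 (0.94) in PF, of Slc2a3 in HSC (-0.0534, a change of sign), and of Slc2a3 (0.30) and Adm (0.94) in MC. They called Slc2a1 (1.38) and Adm (-1.83) in PF, and Aldoc (-1.67) and Ndrg1 (-1.12) in MC. The probe set that also names Rpl17, a setting chosen after seeing the data, turned the sign of Hk1 in HSC (-0.0265) and MC (-0.34). The cause was not tested for shifts other than those that follow from fewer genes or a stricter rule.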
